A study of Homo sapiens with 18 samples.

Results

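The cytosolic ribosomal protein genes are described here in 3 human pancreatic ductal adenocarcinoma cell lines treated with THZ1 or with its solvent DMSO. They were taken by symbol: the large-subunit genes named RPL with a number, the small-subunit genes named RPS with a number, the stalk genes RPLP0, RPLP1 and RPLP2, and RPSA. The rule found 82 of the 17026 endogenous gene rows of the deposited table, 31 of the small subunit and 51 of the large subunit. It does not take FAU, whose product carries a ribosomal protein fused to a ubiquitin-like part, or RPL36AL. The rule would also take RPS4Y1, RPL10L and RPL39L, but these genes had no row in the table used and were not analysed here. One row, RPL12L3, carries a symbol that RefSeq gives only as an older name of the pseudogene RPL12P12.

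A cytosolic ribosome holds a small subunit that reads the mRNA and a large subunit that joins amino acids, and its protein parts are made in nearly equal numbers from genes scattered over the genome. Most of their mRNAs are long-lived and begin with a 5′ terminal oligopyrimidine (TOP) motif, a C at the cap followed by a run of pyrimidines, through which LARP1 and mTOR control their translation. THZ1 binds covalently to CDK7, a kinase of the general transcription factor TFIIH, and also inhibits CDK12 and CDK13, kinases that act on RNA polymerase II.

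The groups were PANC-1, MiaPaCa-2 and BxPC-3 cells given 100 nM THZ1 for 6 h, each set against cells of its own line given DMSO for 6 h. Each of the 6 groups had 3 libraries of polyadenylated RNA, 18 in all. Each library was made from cells of 1 line in a well of a plate, without other treatment named in the labels. The labels number the libraries of a group but do not say that they came from separate cultures, so the p-values measure the spread between these libraries, which may be technical. ERCC controls, a set of synthetic RNAs, were added to the extracted total RNA.

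The libraries held 6.35e+06 to 2.09e+07 recovered reads, with 16342 to 70139 on the ERCC controls. The shallowest, PANC-1 DMSO replicate 1, stood apart: over all genes its log2 residuals had an SD of 0.519, where the other 17 libraries had 0.103 to 0.309, and it was the highest of the 3 PANC-1 DMSO libraries in 69 of 82 members. Its median log2 residual was 0.211 over all genes and 0.357 over the members, so the upward shift was not limited to the members. Results that rest on this library are given with and without it. The keratins KRT8, KRT18 and KRT19, markers of ductal epithelium, were present in every line, whereas KRT7 and CDH1 were low in PANC-1 and MiaPaCa-2 and high in BxPC-3. Of the fibroblast markers COL1A2 was present in MiaPaCa-2, with a mean of 92.1 with THZ1 and 50.2 with DMSO. COL1A1, another, had 25.8 with THZ1 and 34.8 with DMSO in PANC-1, 2.06 and 0.898 in MiaPaCa-2 and 13.9 and 9.51 in BxPC-3, and ACTA2, like the endothelial marker VWF, was low. The leukocyte, acinar and islet markers of the list had no row in the table used. Nor had the epithelial EPCAM, the endothelial PECAM1, the fibroblast DCN and the hepatocyte ALB. Every row of the table had at least 1 read in each library, so a missing row does not show absence from each line.

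The first bases of the transcripts are shown for the members on which the results turn, from RefSeq (GRCh38.p14), 15 bases before the annotated start and 15 from it on. Capitals mark the start base with the unbroken run of pyrimidines after it, or the start base alone where no TOP start was found.
RPLP2: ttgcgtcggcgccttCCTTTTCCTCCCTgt (chr11:809952-809981, plus strand)
RPS16: gtggcccctagctttCCTTTTCCggttgcg (chr19:39435935-39435964, minus strand)
RPS23: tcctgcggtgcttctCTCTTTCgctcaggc (chr5:82278340-82278369, minus strand)
RPS6: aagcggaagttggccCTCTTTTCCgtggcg (chr9:19380222-19380251, minus strand)
RPL35: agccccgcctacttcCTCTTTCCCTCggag (chr9:124861943-124861972, minus strand)
RPS15: tgcgcaggcgcggacCaaagcgatctcttc (chr19:1438381-1438410, plus strand)
RPL36A: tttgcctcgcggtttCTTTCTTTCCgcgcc (chrX:101390996-101391025, plus strand)
RPL22: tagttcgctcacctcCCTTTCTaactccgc (chr1:6199581-6199610, minus strand)
RPL22L1: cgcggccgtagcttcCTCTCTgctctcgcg (chr3:170870181-170870210, minus strand)
RPL26: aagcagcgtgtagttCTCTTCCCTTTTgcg (chr17:8383179-8383208, minus strand)
RPL26L1: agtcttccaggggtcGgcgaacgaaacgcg (chr5:172958714-172958743, plus strand)
RPS27: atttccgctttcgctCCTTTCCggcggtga (chr1:153990747-153990776, plus strand)
RPS27L: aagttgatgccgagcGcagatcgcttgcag (chr15:63157463-63157492, minus strand)
RPL7L1: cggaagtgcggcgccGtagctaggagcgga (chr6:42879601-42879630, plus strand)

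A TOP start, taken as a C at the annotated start followed by at least 4 pyrimidines (C or T), was held by 47 of the 66 members with a RefSeq window, 71.2%, against 988 of 15843 coding genes, 6.24%. Allowing the motif to begin within 5 bases of the annotated start gave 81.8% of the members and 28.0% of the coding genes. Among the paralogs, RPL22L1 had a TOP start like its main copy RPL22, whereas RPL26L1, RPS27L and RPL7L1 began with a G. In windows of 300 bases, 250 before the start and 50 after it, the ETS-like motif CCGGAAG on either strand was held by 36.4% of the members and by 16.5% of the coding genes. ATGGCGG, on either strand, was held by 21.2% and 9.15%, GGGCGG by 57.6% and 64.3%, and TATAAA by 9.09% and 12.4%. A match describes these letters alone, and the annotated start need not be the one these cells used.

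The summed members took a larger share of the endogenous reads after THZ1 in MiaPaCa-2 and BxPC-3. In PANC-1 the members had 5.02%, 4.15% and 4.71% of reads with THZ1, against 4.56%, 4.31% and 3.95% with DMSO. In MiaPaCa-2 they had 6.63%, 6.23% and 6.43% with THZ1, against 4.80%, 4.58% and 4.56% with DMSO. In BxPC-3 the shares were 6.62%, 6.87% and 6.83% with THZ1, against 4.58%, 4.91% and 4.92% with DMSO. The THZ1 libraries lay above the DMSO libraries in MiaPaCa-2 and BxPC-3 and overlapped them in PANC-1. The means were 4.63% ± 0.440 and 4.27% ± 0.303 in PANC-1, 6.43% ± 0.205 and 4.65% ± 0.134 in MiaPaCa-2, and 6.77% ± 0.136 and 4.80% ± 0.197 in BxPC-3, for THZ1 and DMSO in that order (SD, n = 3 each). The counting error is far smaller than this spread: the 4.56% of PANC-1 DMSO replicate 1 had an exact binomial 95% interval of 4.54 to 4.57%. Without that library the PANC-1 DMSO mean was 4.13%.

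Against the ERCC controls the means of the summed members differed little between treatments. The member reads per ERCC read were 14.6 ± 1.06 with THZ1 and 16.5 ± 1.07 with DMSO in PANC-1. They were 19.4 ± 2.67 with THZ1 and 21.8 ± 0.669 with DMSO in MiaPaCa-2, and 17.1 ± 0.876 with THZ1 and 16.7 ± 1.88 with DMSO in BxPC-3 (SD, n = 3 each). In MiaPaCa-2 each THZ1 library (16.3, 20.9 and 21.0) lay below each DMSO library (21.1, 21.9 and 22.4). The libraries of the 2 treatments overlapped in PANC-1 and BxPC-3. Within each line the means thus differed by less than the sum of the SDs, whereas the ERCC sum on the deposited scale was 4442 ± 832 with THZ1 and 1792 ± 114 with DMSO in MiaPaCa-2, and 5322 ± 390 with THZ1 and 2330.5 ± 198 with DMSO in BxPC-3. In PANC-1 it was 2710 ± 461 with THZ1 and 2217 ± 323 with DMSO. The controls were added to RNA and not to cells, so this scale compares libraries on the assumption of equal RNA input. It gives no levels per cell, and RNA per cell was not measured.

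**Figure D1:**
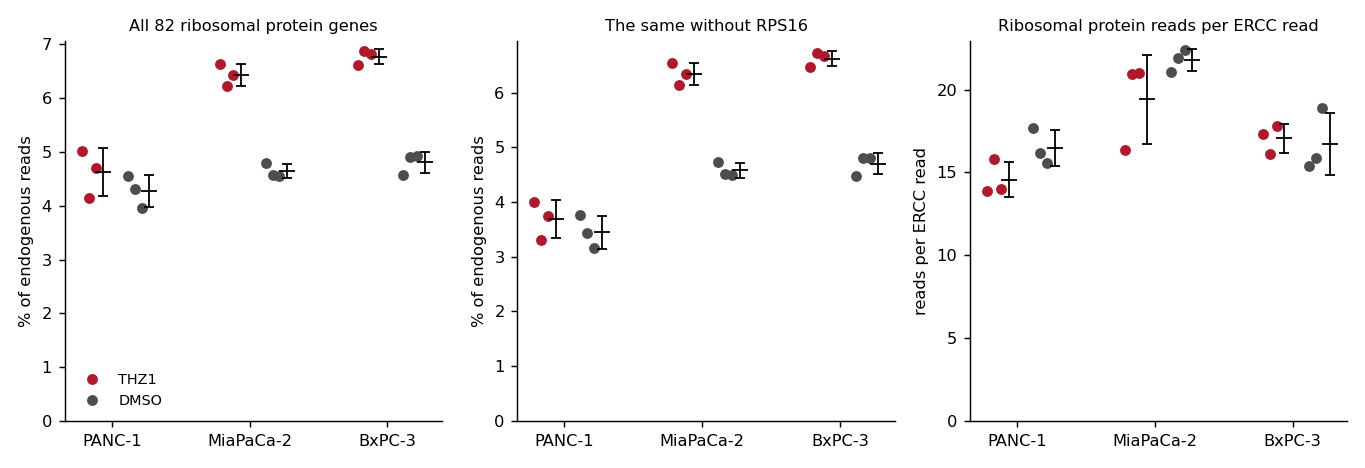
Share of endogenous reads in the 82 members (left), the same without RPS16 (middle) and member reads per ERCC read (right), with THZ1 left of DMSO within each line; points are libraries, bars the mean ± SD of 3. The share is higher with THZ1 in MiaPaCa-2 and BxPC-3 (means 6.43% and 6.77%, against 4.65% and 4.80% with DMSO), whereas the member reads per ERCC read overlap or lie close together.

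Gene by gene, the members responded as a block in MiaPaCa-2 and BxPC-3 on the deposited scale. A member with very few reads did not enter the test: RPL3L, the muscle paralog of the peptidyl-transferase-centre protein RPL3, had 1 to 11 reads per library and did not reach a value of 1 in at least 3 libraries. The other 81 members were among the 15354 genes tested with limma on log2(value + 1), with Benjamini-Hochberg adjustment at 0.05. In MiaPaCa-2, 80 of them rose and 0 fell, where 36.5% of all genes tested rose and 19.8% fell. By the unadjusted p also 0 fell. There edgeR and DESeq2 on the recovered reads each called 78 members higher and 1 lower, and edgeR called 4170 of 15354 genes higher and 4049 lower. In BxPC-3, 78 members rose and 1 fell by limma, where 40.0% of all genes rose and 18.9% fell. RPL7L1 was called in neither line and RPL22L1 not in BxPC-3. The same 78 members rose in both lines. The median log2 fold change of the members was 1.10 (from -0.13 to 1.28) in MiaPaCa-2 and 1.20 (from -0.86 to 1.46) in BxPC-3, where the medians of all genes tested were 0.19 and 0.25. Part of this size comes with the deposited scale, on which library totals were not equal. BxPC-3 replicate 1 had 1.69e+07 endogenous reads with either treatment, at 12.8 reads per unit value with THZ1 and 21.1 with DMSO. With libraries at equal sums the member medians were 0.45 in MiaPaCa-2 and 0.47 in BxPC-3, and those of all genes -0.30 and -0.29. Both subunits moved alike on the deposited scale: the median was 1.11 for the small subunit and 1.10 for the large subunit in MiaPaCa-2, and 1.24 and 1.18 in BxPC-3.

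In PANC-1 the median log2 fold change of the members was 0.08 (from -0.30 to 0.34), and that of all genes was -0.07. RPS23 alone rose and 0 members fell by limma, where 0.274% of all genes rose and 0.228% fell. By edgeR on the recovered reads 0 members were called, where 7 of 15354 genes were higher and 12 lower. At an unadjusted limma p under 0.05 the member counts would be 18 and 2, and DESeq2 called 21 members higher. The shares of all genes beside these last counts are not given here, so they cannot be read as particular to the members. The limma count rests on PANC-1 DMSO replicate 1: without it limma called 64 members higher and 0 lower, where 5.63% of all genes were higher and 1.35% lower, with a member median of 0.27 and an all-gene median of 0.02. On the ERCC scale it called 0 members higher and 2 lower in PANC-1 without that library, where 0.158% of all genes were higher and 15.5% lower.

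Counted by library, the THZ1 and DMSO values of 80 members did not overlap and lay higher with THZ1 in MiaPaCa-2, where 47.6% of all genes did so, and 1 member lay lower (26.2% of all genes). In BxPC-3, 79 members lay higher and 2 lower without overlap, where 51.1% and 25% of all genes did. In PANC-1, 11 members lay higher (8.34% of all genes) and 2 lower (8.73% of all genes), and 68 overlapped. The 11 were RPL3, RPL4, RPL5, RPL7, RPL14, RPL22, RPL23, RPL30, RPS7, RPS23 and RPS25, and the 2 were RPL22L1 and RPL36A.

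With libraries set to equal ERCC sums the members' log2 fold changes centred near or below 0, and those of all genes lay lower. The median log2 fold change of the members was -0.19 in PANC-1, -0.19 in MiaPaCa-2 and 0.01 in BxPC-3, and that of all genes tested was -0.31, -0.85 and -0.65. By limma, 0 members rose and 3 fell in PANC-1, where 0.0391% of all genes rose and 18% fell. In MiaPaCa-2 0 members rose and 6 fell, where 1.45% of all genes rose and 73.2% fell, and in BxPC-3 0 rose and 5 fell, where 1.37% rose and 59.2% fell. At an unadjusted p under 0.05 the members higher were still 0 in each line. RPL36A and RPL22L1 fell in all 3 lines, RPL7L1 and RPL26 in MiaPaCa-2 and BxPC-3, RPS15A in PANC-1 and MiaPaCa-2, RPL17 in MiaPaCa-2 and RPS27L in BxPC-3. The values of the 2 groups did not overlap, lower with THZ1, in 17 members in PANC-1 (31.5% of all genes), 40 in MiaPaCa-2 (81.8%) and 9 in BxPC-3 (73.6%); 0 members lay higher without overlap, where 0.117%, 1.82% and 2.78% of all genes did. The count of 3 in PANC-1 was 0 to 6 over fits that left out 1 library: 0 without THZ1 replicate 1 or 3, 5 without THZ1 replicate 2 and 6 without DMSO replicate 3. The member median minus the all-gene median was 0.12 to 0.17 in PANC-1, 0.66 to 0.91 in MiaPaCa-2 and 0.67 to 0.95 in BxPC-3 over 5 scalings.

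**Figure D2:**
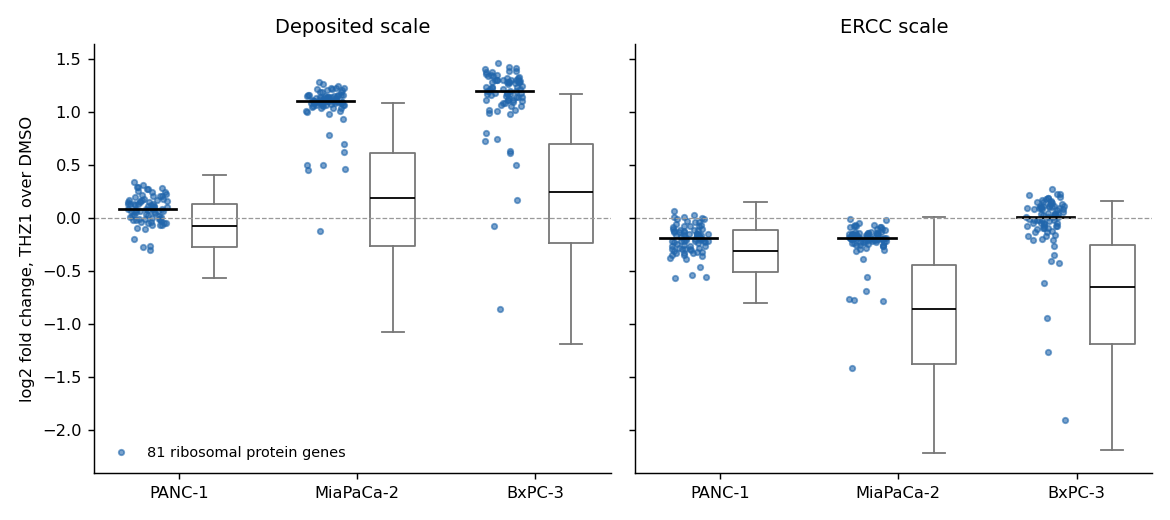
Log2 fold change of THZ1 over DMSO for the 81 members tested (points, with their median) beside all 15354 genes tested (box, 25th to 75th percentile; whiskers, 5th to 95th), on the deposited scale and with equal ERCC sums. Member medians lie at 0.08, 1.10 and 1.20 on the deposited scale and at -0.19, -0.19 and 0.01 on the ERCC scale in PANC-1, MiaPaCa-2 and BxPC-3, above the median of all genes in each panel.

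The stalk proteins RPLP0, RPLP1 and RPLP2, which recruit the elongation factors to the large subunit, rose in MiaPaCa-2 and BxPC-3. RPLP0, which anchors the stalk, had deposited-scale values of 1785, 1448 and 1666 with THZ1 in PANC-1, against 2077, 1417 and 1264 with DMSO. In MiaPaCa-2 it had 2560.3, 2386 and 2425 with THZ1, against 1148, 1094 and 1107 with DMSO, and in BxPC-3 4178, 4287 and 4248 with THZ1, against 1588, 1725 and 1775 with DMSO. The groups stood apart in MiaPaCa-2 and BxPC-3, and in PANC-1 the highest DMSO library, replicate 1, exceeded each THZ1 library. The log2 fold change of RPLP0 was 0.07 ± 0.134 in PANC-1 (SE; limma adjusted p = 0.749), 1.14 ± 0.134 in MiaPaCa-2 (adjusted p = 2.45e-06) and 1.32 ± 0.134 in BxPC-3 (adjusted p = 3.52e-07).

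RPLP2 showed the same split. Its values in PANC-1 were 963, 713 and 857 with THZ1, against 1461, 732 and 630.5 with DMSO. In MiaPaCa-2 they were 924, 820.0 and 871 with THZ1, against 382, 361 and 357 with DMSO, and in BxPC-3 972, 1073 and 1005 with THZ1, against 345, 397 and 398 with DMSO. With THZ1 the 3 lines had like values, and with DMSO PANC-1 was the highest line. Its log2 fold change was -0.07 ± 0.209 in PANC-1 (limma adjusted p = 0.854), 1.25 ± 0.209 in MiaPaCa-2 (adjusted p = 9.46e-05) and 1.42 ± 0.209 in BxPC-3 (adjusted p = 2.25e-05), and RPLP1 had -0.04, 1.19 and 1.39 in the same lines. In PANC-1 the direction turned without DMSO replicate 1: RPLP2 had 0.30 (limma adjusted p = 0.0468) and RPLP1 0.31 (adjusted p = 0.0176), and likewise RPSA 0.28 (adjusted p = 0.0181) and RPS29 0.34 (adjusted p = 0.0166).

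In the small subunit, RPS29 and RPS15 had the highest log2 fold changes of BxPC-3. RPS29, a zinc-binding protein of the 40S head, had values of 89.9, 68.3 and 82.7 with THZ1 in PANC-1, against 141, 65.6 and 60.4 with DMSO. In MiaPaCa-2 it had 314, 287 and 301 with THZ1, against 141, 141 and 138 with DMSO, and in BxPC-3 337, 351 and 321 with THZ1, against 114, 122 and 129.8 with DMSO. The groups again stood apart in MiaPaCa-2 and BxPC-3; in PANC-1 DMSO replicate 1 lay above the 3 THZ1 libraries and the remaining DMSO libraries below them. RPS29 rose by 1.10 ± 0.211 in MiaPaCa-2 (limma adjusted p = 0.000336) and by 1.46 ± 0.211 in BxPC-3 (adjusted p = 1.87e-05), and had -0.05 ± 0.211 in PANC-1 (adjusted p = 0.899). RPS15, whose tail reaches the decoding site, rose by 1.19 ± 0.154 in MiaPaCa-2 (adjusted p = 6.53e-06) and by 1.42 ± 0.154 in BxPC-3 (adjusted p = 7.63e-07), and had 0.10 in PANC-1.

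RPS23, a protein of the decoding centre, was the member called in all 3 lines. In PANC-1 its values were 46.9, 44.3 and 47.7 with THZ1, against 35.7, 36.8 and 36.3 with DMSO. In MiaPaCa-2 they were 204, 202 and 208 with THZ1, against 88.4, 87.6 and 78.7 with DMSO, and in BxPC-3 105, 104 and 102 with THZ1, against 46.5, 49.0 and 49.6 with DMSO. The groups did not overlap in any line. Its log2 fold change was 0.34 ± 0.0665 in PANC-1 (limma adjusted p = 0.0462), 1.26 ± 0.0665 in MiaPaCa-2 (adjusted p = 8.84e-10) and 1.09 ± 0.0665 in BxPC-3 (adjusted p = 1.68e-09). The PANC-1 call held in 3 of the 18 fits that left out 1 library, those without a PANC-1 DMSO library (limma adjusted p = 0.00354 without DMSO replicate 1), and was lost in the rest, with adjusted p from 0.0617 to 0.222. The log2 fold change was 0.32 to 0.38 over them. On the ERCC scale RPS23 had 0.07, -0.02 and -0.09 in PANC-1, MiaPaCa-2 and BxPC-3.

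RPS6, the classic substrate of the S6 kinases, had values of 264, 238 and 255 with THZ1 in PANC-1, against 238, 222 and 199 with DMSO. In MiaPaCa-2 it had 1375, 1466 and 1543 with THZ1, against 747, 718 and 705 with DMSO, and in BxPC-3 1063, 1346 and 1329 with THZ1, against 568, 610.1 and 606 with DMSO. The THZ1 libraries lay above the DMSO libraries in MiaPaCa-2 and BxPC-3 and overlapped them in PANC-1. RPS6 rose by 1.01 ± 0.0936 in MiaPaCa-2 (limma adjusted p = 1.96e-07) and by 1.06 ± 0.0936 in BxPC-3 (adjusted p = 7.91e-08), and had 0.20 ± 0.0936 in PANC-1 (adjusted p = 0.221). RPS19, mutated in Diamond-Blackfan anaemia, rose by 1.21 in MiaPaCa-2 and 1.39 in BxPC-3 and had 0.02 in PANC-1. RPSA, also known as a laminin receptor, rose by 1.15 in MiaPaCa-2 and 1.28 in BxPC-3 and had -0.01 in PANC-1. RPS3, which lines the mRNA entry channel, rose by 1.15 and 1.24 in those 2 lines and RPS26, at the mRNA exit, by 1.09 and 1.24; in PANC-1 they had 0.21 and 0.01.

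RPL5 and RPL11, which bind the 5S rRNA and, outside the ribosome, MDM2, moved with the rest. RPL5 had values of 311, 281 and 298 with THZ1 in PANC-1, against 214, 269.8 and 244 with DMSO. In MiaPaCa-2 it had 1581, 1496 and 1554 with THZ1, against 749.6, 725 and 711 with DMSO, and in BxPC-3 1601, 1641 and 1619.7 with THZ1, against 728, 779 and 786 with DMSO. The groups stood apart in each line, though in PANC-1 the gap was small. The log2 fold change of RPL5 was 0.29 ± 0.0787 in PANC-1 (limma adjusted p = 0.0864), 1.08 ± 0.0787 in MiaPaCa-2 (adjusted p = 1.61e-08) and 1.08 ± 0.0787 in BxPC-3 (adjusted p = 8.85e-09), and RPL11 had 0.18, 1.15 and 1.20. RPL10, needed for the joining of the subunits, had 0.12, 1.09 and 1.22, and RPL38, known in mice for the translation of Hox mRNAs, had 0.00, 1.10 and 1.28. RPL35, at the exit of the nascent chain tunnel, had 0.05, 1.23 (limma adjusted p = 1.75e-06) and 1.41 (adjusted p = 2.87e-07). RPL29 had the highest change of the members in MiaPaCa-2, 1.28 (adjusted p = 5.61e-06), with 1.06 in BxPC-3 and -0.01 in PANC-1. That rank rests on 1 library: RPL29 had 446, 297 and 424 with DMSO in MiaPaCa-2. Without DMSO replicate 2 of that line its change was 1.10, where the member median over all libraries was 1.10.

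Most members moved by nearly the same amount. On the deposited scale, 76 of 81 members lay within 0.25 log2 of the member median in PANC-1, 73 in MiaPaCa-2 and 71 in BxPC-3. In BxPC-3, 1 lay above this band (RPS29) and 9 below it: RPL12L3 (0.63), RPL17 (0.61), RPL22L1 (0.17), RPL26 (0.50), RPL26L1 (0.80), RPL36A (-0.86), RPL7L1 (-0.08), RPS10 (0.73) and RPS27L (0.74). In MiaPaCa-2 the 8 below it were RPL12L3 (0.62), RPL17 (0.50), RPL22L1 (0.50), RPL26 (0.46), RPL36A (0.46), RPL7L1 (-0.13), RPS10 (0.78) and RPS15A (0.70). Of these, RPL36A, RPL17 and RPS10 share their exons with RefSeq read-through genes (RPL36A-HNRNPH2, RPL17-C18orf32 and RPS10-NUDT3), and RPL26 and RPL26L1 are near-identical to each other. How the authors assigned reads that fit several genes or pseudogene copies is not given in the sources used here, so the counts of these members are uncertain, and the part of this in their lower change was not tested.

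With the libraries set to an equal member median, which asks whether a member departs from the others, limma called 0 members higher and 2 lower in PANC-1, where 0.130% of all genes were higher and 15.1% lower; at an unadjusted p under 0.05 it would be 0 and 6. It called 4 higher and 5 lower in MiaPaCa-2 (2.16% and 59.8% of all genes), and 3 higher and 15 lower in BxPC-3 (1.5% and 65.8% of all genes). The members that were higher departed by small amounts: in MiaPaCa-2 they included RPL37, RPS2 and RPL35, by 0.16 to 0.17, and in BxPC-3 they were RPS12, RPL35 and RPS15, by 0.12 to 0.16. Those that were lower by more than 0.5 were RPL36A (-1.96), RPL7L1 (-1.33), RPL22L1 (-1.01), and RPL26 (-0.67) in BxPC-3, and RPL7L1 (-1.18), RPL26 (-0.54), RPL36A (-0.53) and RPL22L1 (-0.52) in MiaPaCa-2. The 2 in PANC-1 were RPL36A (-0.41) and RPS15A (-0.38). Without PANC-1 DMSO replicate 1 these counts, both directions together, were 7 in PANC-1, 32 in MiaPaCa-2 and 44 in BxPC-3, where 28.0%, 76.1% and 79.2% of all genes were called, against 2, 9 and 18 with it.

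**Figure D3:**
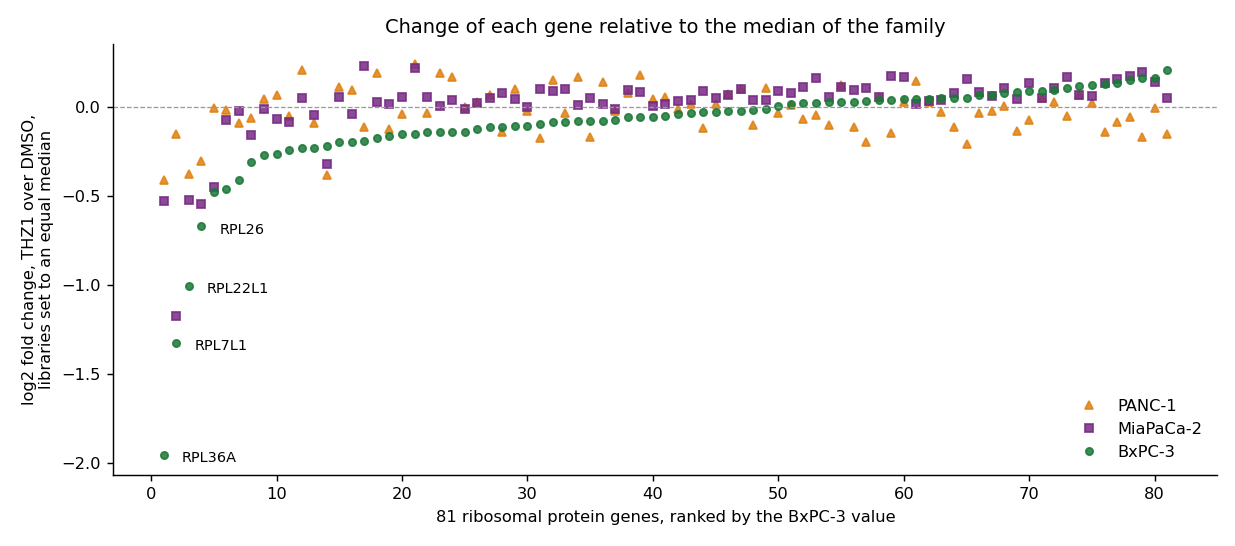
Log2 fold change of THZ1 over DMSO for the 81 members with libraries set to an equal member median, ranked by the value in BxPC-3 and shown for the 3 lines. Most members lie close to 0, and RPL36A (-1.96 in BxPC-3), RPL7L1, RPL22L1 and RPL26 lie lowest.

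RPL36A, a protein of the large subunit near the exit site for tRNA, was the member whose response differed most between MiaPaCa-2 and BxPC-3. Its values were 7.89, 7.32 and 8.36 with THZ1 in PANC-1, against 10.7, 8.74 and 10.3 with DMSO. In MiaPaCa-2 they were 20.4, 20.8 and 19 with THZ1, against 14.7, 14.2 and 14.2 with DMSO, and in BxPC-3 7.87, 7.32 and 6.14 with THZ1, against 12.8, 13.7 and 14.6 with DMSO. THZ1 libraries were thus lower than each DMSO library in PANC-1 and BxPC-3 and higher in MiaPaCa-2. The log2 fold change was -0.30 ± 0.106 in PANC-1 (limma adjusted p = 0.143), 0.46 ± 0.106 in MiaPaCa-2 (adjusted p = 0.00157) and -0.86 ± 0.106 in BxPC-3 (adjusted p = 3.19e-06). On the ERCC scale it was -0.57 (limma adjusted p = 0.0289), -0.77 (adjusted p = 0.000402) and -1.91 (adjusted p = 7.76e-09) in the same lines. The MiaPaCa-2 direction on the deposited scale depends on the scaling: with libraries at equal sums it was -0.16. The difference of the response, MiaPaCa-2 minus BxPC-3, was 1.32 ± 0.149 (limma adjusted p = 2.96e-05).

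RPL7L1, a paralog of RPL7 known from ribosome assembly, had near-equal values in both groups on the deposited scale. They were 223, 209.6 and 223 with THZ1 in PANC-1, against 251, 223 and 205 with DMSO. In MiaPaCa-2 they were 255, 244 and 254 with THZ1, against 280.1, 269 and 271 with DMSO, and in BxPC-3 152, 161 and 155 with THZ1, against 161, 163 and 170.3 with DMSO. The libraries lay slightly lower with THZ1 in MiaPaCa-2 and BxPC-3, with no overlap, and overlapped in PANC-1. The log2 fold change was -0.05 (limma adjusted p = 0.699), -0.13 (adjusted p = 0.154) and -0.08 (adjusted p = 0.37) in PANC-1, MiaPaCa-2 and BxPC-3. On the ERCC scale RPL7L1 had -0.33 (adjusted p = 0.108), and it fell by 1.42 in MiaPaCa-2 (adjusted p = 5.93e-08) and by 1.26 in BxPC-3 (adjusted p = 3.37e-07).

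Ratios between paralogs within a library do not depend on the scaling of libraries. They were tested over the 3 lines together with an exact two-sided permutation test of 8000 relabellings within lines, adjusted over 4 pairs, and are given as reads of the paralog in percent of those of its main copy, not per length. RPL7L1 had 38.3 to 41.9% of the RPL7 reads with THZ1 and 46.2 to 56.8% with DMSO in PANC-1, 22.4 to 22.8% and 52.3 to 53% in MiaPaCa-2, and 9.46 to 9.78% and 21.4 to 22.4% in BxPC-3, THZ1 before DMSO each time. The groups did not overlap in any line, and the mean log2 difference was -0.91 (exact permutation p = 0.00025, the smallest this design allows; adjusted p = 5e-04). By line it was -0.32 in PANC-1, -1.22 in MiaPaCa-2 and -1.20 in BxPC-3.

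RPL22L1, whose mRNA is repressed by RPL22 in mice, was also lower relative to its main copy. It had 3.55 to 3.70% of the RPL22 reads with THZ1 and 4.90 to 5.98% with DMSO in PANC-1, 6.39 to 7.47% with THZ1 and 9.90 to 11.1% with DMSO in MiaPaCa-2, and 2.25 to 2.30% with THZ1 and 4.70 to 5.23% with DMSO in BxPC-3. No line showed an overlap, and the mean log2 difference was -0.74 (exact permutation p = 0.00025; adjusted p = 5e-04). On the deposited scale RPL22L1 had -0.27 in PANC-1 (limma adjusted p = 0.142) and 0.17 in BxPC-3 (adjusted p = 0.127), and it rose by 0.50 in MiaPaCa-2 (adjusted p = 0.00023). With libraries at equal sums the last 2 values turned, to -0.52 in BxPC-3 (adjusted p = 0.000776) and -0.13 in MiaPaCa-2.

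The other paralogs moved less. RPL26L1, near-identical to RPL26, had a mean log2 difference of 0.36 (exact permutation p = 0.0045; adjusted p = 0.006), with 194 to 239% of the RPL26 reads with THZ1 and 139 to 210.0% with DMSO in PANC-1, 261 to 279% with THZ1 and 156 to 209% with DMSO in MiaPaCa-2, and 204 to 217% with THZ1 and 144 to 210.0% with DMSO in BxPC-3. The groups overlapped in PANC-1 and BxPC-3. RPS27L, which p53 induces, had a mean log2 difference from RPS27 of -0.21 (exact permutation p = 0.01725; adjusted p = 0.01725): 6.38 to 7.59% with THZ1 and 6.37 to 7.41% with DMSO in PANC-1, 3.28 to 3.64% with THZ1 and 3.62 to 4.23% with DMSO in MiaPaCa-2, and 6.93 to 8.28% with THZ1 and 10.6 to 11.1% with DMSO in BxPC-3. The RPS27L groups stood apart in BxPC-3 and overlapped elsewhere. Neither of these calls was firm: the adjusted exact permutation p for RPL26L1 was 0.139 without replicate 1 of each group and 0.0617 without replicate 3, and for RPS27L 0.0648 without replicate 2 and 0.231 without replicate 3.

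**Figure D4:**
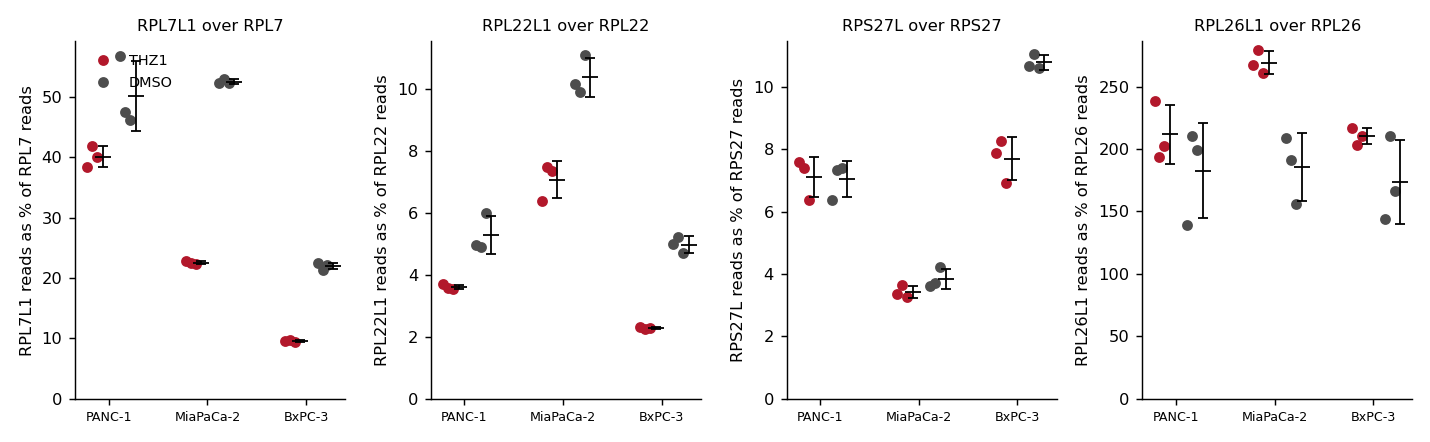
Reads of 4 paralogs in percent of the reads of their main copy, per library, with THZ1 left of DMSO in each line (points, libraries; bars, mean ± SD of 3). RPL7L1 and RPL22L1 lie lower with THZ1 in all 3 lines, as in BxPC-3 with 9.62% against 22% and 2.28% against 4.97%.

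The response of the members in PANC-1 differed from that in the other lines. On the deposited scale the difference PANC-1 minus MiaPaCa-2 was called in 78 of 81 members, 0 positive and 78 negative, where 11.6% of all genes were positive and 27.4% negative (limma; 0 and 78 at an unadjusted p under 0.05). PANC-1 minus BxPC-3 was called in 78 members, 1 positive (RPL36A, 0.56) and 77 negative, where 11.9% and 30.8% of all genes were called. RPL7L1, RPL17 and RPL12L3 were not called in either. The member medians of these differences were -0.98 against MiaPaCa-2 and -1.10 against BxPC-3. Without PANC-1 DMSO replicate 1 they were -0.84 and -0.93. Against MiaPaCa-2 79 members were then called, 0 positive and 79 negative (17.6% and 35.9% of all genes), and against BxPC-3 78, 1 positive and 77 negative (17% and 39.8%). The smallest p over the 3 lines belonged to RPL15, RPL14, RPS23 and RPL4. RPL15, in the core of the large subunit, had 402, 353 and 392 with THZ1 in PANC-1, against 355, 349 and 328 with DMSO, and 930.1, 987 and 970 with THZ1 in BxPC-3, against 479.7, 496 and 482 with DMSO. The RPL15 groups overlapped in PANC-1 and not in BxPC-3.

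This difference between lines did not appear with equal ERCC sums. There, 1 member was called for PANC-1 minus MiaPaCa-2 (RPL7L1, 1.09), where 42.0% of all genes were positive and 1.60% negative. For PANC-1 minus BxPC-3 2 members were called (RPL36A, 1.34, and RPL7L1, 0.93), where 28.9% of all genes were positive and 1.62% negative. MiaPaCa-2 minus BxPC-3 was called in 1 member, RPL36A, on either scale: 1.32 on the deposited scale, where 6.14% of all genes were positive and 7.66% negative, and 1.14 on the ERCC scale, where 2.43% were positive and 5.22% negative. On the deposited scale that count was 10 without PANC-1 DMSO replicate 1, where 35.7% of all genes were called in either direction, and 27 in a fit of the 4 groups compared alone, where 41.1% were. With equal member medians, limma called a difference in either direction in 5 members for PANC-1 minus MiaPaCa-2, where 41.0% of all genes were called, in 5 for PANC-1 minus BxPC-3, where 49.3% were, and in RPL36A alone for MiaPaCa-2 minus BxPC-3, where 13.4% were. That scaling takes out, by construction, a response the members share. Its counts thus cannot show whether the shared response differed between lines, only which members departed from it.

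Levels of most members with DMSO differed between lines, as did those of most genes tested, so this is not particular to the members. The limma F-test over the 3 DMSO groups called 66 of 81 members, where 79.1% of all genes tested were called. PANC-1 minus MiaPaCa-2 was positive in 9 members and negative in 46 (28.0% and 32.8% of all genes), and PANC-1 minus BxPC-3 was positive in 9 and negative in 39 (33.7% and 25.4%). MiaPaCa-2 minus BxPC-3 was positive in 28 and negative in 15 (37.5% and 25.1%). The member medians were -0.42, -0.32 and 0.09 on the log2 scale. Without PANC-1 DMSO replicate 1 the F-test called 80 members, where 88.8% of all genes were called.

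RPS16, a small-subunit protein near the decoding site, stood out. With THZ1 it had 8759, 7022 and 8079 in PANC-1, 1295, 1165 and 1215 in MiaPaCa-2 and 1932, 2044 and 2019 in BxPC-3. With DMSO it had 7987, 6943 and 6184 in PANC-1, 584, 556 and 552 in MiaPaCa-2 and 806, 869.7 and 875 in BxPC-3. PANC-1 thus lay far above both other lines under either treatment. The difference with DMSO was 3.63 ± 0.0973 log2 for PANC-1 minus MiaPaCa-2 (limma adjusted p = 1.38e-14) and 3.04 for PANC-1 minus BxPC-3 (adjusted p = 9.44e-14), and 3.33 and 3.12 on the ERCC scale. RPS16 took 20.3% ± 0.0708 of the member reads with THZ1 and 19.4% ± 1.60 with DMSO in PANC-1, 1.45% with either in MiaPaCa-2, and 2.21% and 2.20% in BxPC-3. Without it the members had 3.69% ± 0.348 of the endogenous reads with THZ1 and 3.45% ± 0.302 with DMSO in PANC-1, 6.34% ± 0.201 and 4.58% ± 0.132 in MiaPaCa-2, and 6.62% ± 0.134 and 4.70% ± 0.193 in BxPC-3, THZ1 before DMSO (SD, n = 3 each).

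The genes around RPS16 on chromosome 19 were higher in PANC-1 as well. In RefSeq order, a run of 21 tested genes from SAMD4B to AKT2 holds RPS16, and its 20 neighbours there were higher in PANC-1 with DMSO by a median of 3.65 log2 (from 1.69 to 6.68) than in MiaPaCa-2 and of 3.33 (from 2.12 to 5.07) than in BxPC-3. The run was delimited after its values were seen. It was extended from RPS16 while both differences exceeded 1 log2 with limma adjusted p under 0.05. Its medians and lower limits are thus partly set by that rule. The run includes PAF1 and SUPT5H, which act in transcription elongation, FBL, the methyltransferase of rRNA, and the kinase genes DYRK1B and AKT2. Of 25 tested genes on each side of RPS16, 35 of the 50 were called higher in PANC-1 than in both other lines by more than 1 log2. The share of all genes tested that meet this rule is not given here, so how unusual that count is cannot be read from it. DNA copy number was not analysed here.

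For the other members with the smallest p with DMSO, neighbours are given by their median. RPS7, a small-subunit protein, had 380.3, 421 and 392 in PANC-1, 735, 688 and 694 in MiaPaCa-2 and 183, 191 and 195 in BxPC-3 with DMSO. MiaPaCa-2 was the highest line and BxPC-3 the lowest, without overlap. The difference MiaPaCa-2 minus BxPC-3 was 1.89 for RPS7 and 1.48 in the median of 10 neighbours, 5 on each side. RPS6 was lower in PANC-1 than in MiaPaCa-2 by a log2 difference of -1.72 and its neighbours had a median of -1.32. RPL5 had -1.59 and its neighbours -0.90, RPL7A, a large-subunit protein, -1.27 and -0.64, and RPL23, at the face of the large subunit that meets the small one, -1.58 and -0.52. For PANC-1 minus BxPC-3, RPL5 had -1.66 and its neighbours -1.38, RPS6 -1.44 and -1.02, and RPL7A -1.27 and -0.86. In that comparison RPL23 had -0.91 and its neighbours 0.15, in the other direction.

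**Figure D5:**
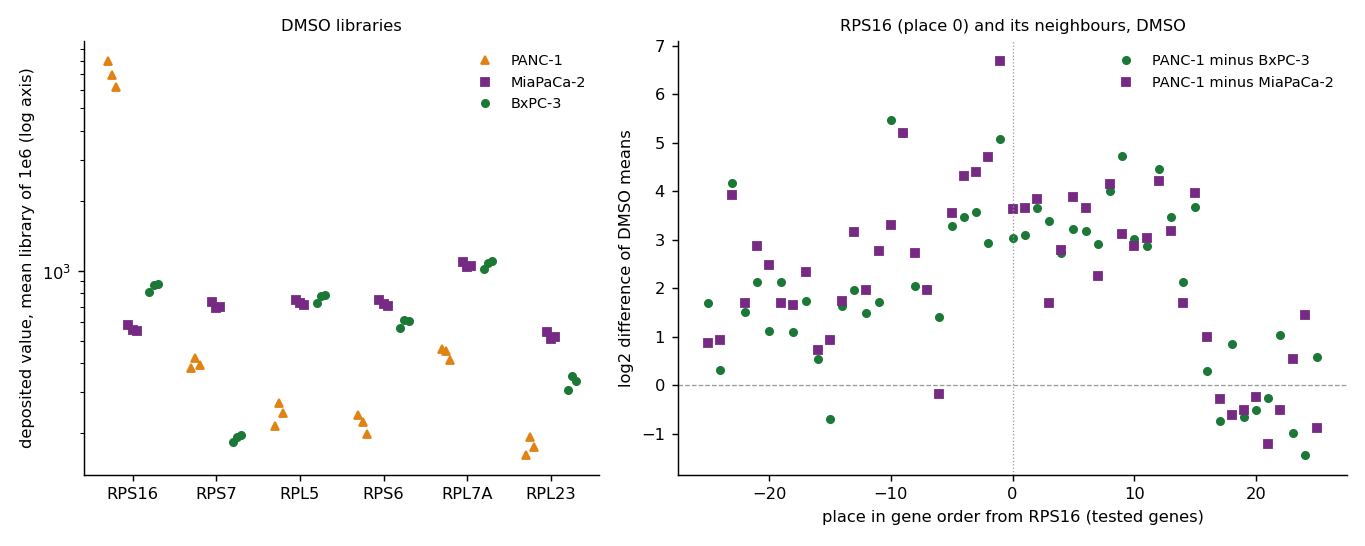
Left, deposited-scale values with DMSO of the 6 members with the smallest p among lines (log axis; points are libraries); right, log2 difference with DMSO between PANC-1 and each other line for RPS16 and 25 tested genes on each side of it, in RefSeq order. RPS16 has 6184 to 7987 in PANC-1 against 552 to 584 in MiaPaCa-2 and 806 to 875 in BxPC-3, and it lies in a run of 21 genes higher in PANC-1.

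The responses were also read by the presence of a TOP start. On the deposited scale the median log2 fold change in PANC-1 was 0.08 both in the 47 members with a TOP start and in the 19 without one. In MiaPaCa-2 the medians were 1.11 with it and 1.09 without it, and in BxPC-3 1.22 and 1.18. In the 12 members with no such start within 5 bases of the annotated one either, the medians were 0.07 in PANC-1, 1.06 in MiaPaCa-2 and 1.06 in BxPC-3. Other coding genes with a TOP start (643 genes) had medians of -0.04 in PANC-1, 0.28 in MiaPaCa-2 and 0.28 in BxPC-3, and those without one (8690 genes) had -0.04, 0.15 and 0.22. A difference between these sets was not tested.

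Other genes of the translation machinery were looked at through lists chosen with earlier results of these data known. Of 22 TOP mRNAs that are no members, such as those of elongation factors, 0 were called in PANC-1 by limma, 21 rose and 0 fell in MiaPaCa-2, and 20 rose and 1 fell in BxPC-3, with medians of 0.20, 1.02 and 0.98. On the ERCC scale their medians were -0.08, -0.28 and -0.21. FAU, which encodes a small-subunit protein, rose by 1.20 in MiaPaCa-2 (limma adjusted p = 3.46e-05) and 1.43 in BxPC-3 (adjusted p = 4.59e-06) and had 0.06 in PANC-1, close to the members. EIF4A2, a helicase of translation initiation, fell by 0.58 in BxPC-3 (adjusted p = 0.0205) and had -0.43 in MiaPaCa-2 (adjusted p = 0.0785) and 0.14 in PANC-1.

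The genes of mitochondrial ribosomal proteins had lower medians than the members: of 74 tested, 59 rose and 1 fell in MiaPaCa-2 (median 0.60), 41 rose and 9 fell in BxPC-3 (median 0.38; edgeR called 20 higher and 18 lower), and 0 were called in PANC-1 (median 0.04) by limma. Of 75 nuclear genes of oxidative phosphorylation, 69 rose and 0 fell in MiaPaCa-2 (median 0.99), 69 rose and 1 fell in BxPC-3 (median 1.02), and 4 rose and 0 fell in PANC-1 (median 0.08). Of 96 initiation and elongation factors, 66 rose and 3 fell in MiaPaCa-2 (median 0.67), 67 rose and 7 fell in BxPC-3 (median 0.62), and 0 were called in PANC-1 (median 0.07). A difference between these lists and the members was not tested.

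Among genes that act on the members both directions were called. Over all genes tested, 36.5% rose and 19.8% fell in MiaPaCa-2 and 40.0% rose and 18.9% fell in BxPC-3. Of 13 transcription factors known at ribosomal protein promoters, 2 rose and 6 fell in MiaPaCa-2 (median -0.07), 1 rose and 5 fell in BxPC-3 (median -0.15), and 0 were called in PANC-1 (median -0.03) by limma. YY1 rose by 0.79 in MiaPaCa-2 and 1.13 in BxPC-3, and GABPB1 fell by 0.77 and 0.99. Of 18 genes of TOP mRNA control and mTOR signalling, 9 rose and 3 fell in MiaPaCa-2 (median 0.22), 10 rose and 2 fell in BxPC-3 (median 0.44; edgeR called 5 higher and 4 lower, DESeq2 6 and 3), and 0 were called in PANC-1 (median 0.07). RHEB, the activator of mTOR complex 1, rose by 1.00 in MiaPaCa-2 and 1.19 in BxPC-3.

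Of 13 dedicated chaperones and importins of ribosomal proteins, 7 rose and 2 fell in MiaPaCa-2 (median 0.55), 8 rose and 4 fell in BxPC-3 (median 0.65), and 0 were called in PANC-1 (median 0.20) by limma. TSR2, the chaperone of RPS26, rose by 0.73 in MiaPaCa-2 and 1.26 in BxPC-3, and GRWD1, a chaperone of RPL3, fell by 0.52 and 0.97. Of 11 genes of the 5S particle and its p53 checkpoint, 3 rose and 4 fell in MiaPaCa-2 (median -0.15), 3 rose and 4 fell in BxPC-3 (median -0.12; edgeR called 1 higher and 7 lower in either line), and 0 were called in PANC-1 (median -0.08). RRS1, which helps to load the 5S particle, fell by 0.80 in MiaPaCa-2 and 1.45 in BxPC-3.

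The PANC-1 counts of these lists rest in part on the library that stands apart. Without PANC-1 DMSO replicate 1 limma called 14 of the TOP mRNAs higher and 1 lower, 30 oxidative phosphorylation genes higher, 20 initiation and elongation factors higher and 1 lower, 2 genes of TOP mRNA control, 1 chaperone or importin and 1 mitochondrial ribosomal protein higher, 1 transcription factor lower, and 0 genes of the 5S particle. In that fit 5.63% of all genes were higher and 1.35% lower. With that library, the counts at an unadjusted p under 0.05 were 11 higher and 0 lower for the TOP mRNAs, 26 and 0 for the oxidative phosphorylation genes, 22 and 2 for the initiation and elongation factors, 11 and 0 for the mitochondrial ribosomal proteins, 6 and 1 for the chaperones, 3 and 1 for TOP mRNA control, 2 and 1 for the transcription factors, and 0 and 3 for the 5S particle. By edgeR 0 genes of each of the 8 lists were called in PANC-1, and by DESeq2 0 to 14 per list were called higher and 0 to 1 lower. The shares of all genes beside the unadjusted and the DESeq2 counts are not given here, so those counts cannot be read as particular to the lists.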

How the data were processed

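Per the labels' protocols, ERCC controls were added to total RNA and libraries were made with a stranded mRNA kit. Per the submitters' processing notes, reads were aligned with STAR to hg19; which program counted reads, with what annotation, filter or divisor, is not given in the sources used here. In their 1 deposited table the authors give a normalised signal for 17026 genes and 38 ERCC transcripts. A single whole-number divisor per library turns the deposited values back into whole read counts (each within 0.001 of a whole number, the largest deviation 0.000112). The authors' own log2 summary columns in the deposited table, averages over all lines, were not used. The design had foreseen normalised values with recovered reads as an alternative. Of the 17026 gene rows, 22 have dates in place of gene names and were kept unnamed.

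Values were multiplied by 17.6795, so that the mean library summed to 1e+06; a value of 1 stands for 6.34 to 24.7 reads. limma 3.58.1 (R 4.3.3) was fitted with trend to log2(value + 1) of the 15354 genes at 1 or more in at least 3 libraries, with 6 group means over 18 libraries, Benjamini-Hochberg adjusted over all genes at 0.05. The fit was repeated with equal ERCC sums and with equal member medians. It was tested on simulated data. Alternatives were edgeR 4.0.16 and DESeq2 1.42.0 on recovered reads, other scalings, filters, pseudocounts and fits, and leaving out each library. Intervals are exact binomial at 95% and cover counting error only, since the reads carry no molecular identifiers. Ratios of paralogs use reads with 0.5 added.

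Members and lists were chosen with earlier results of these data known. Members were named by rule: the 4 highest and 4 lowest changes per line, those departing most from the member median, the 4 smallest p among responses, the 6 smallest p among DMSO groups, and fixed members by role. For each list the highest and lowest mean changes were named. Promoter windows come from RefSeq (GRCh38.p14), by symbol, matched for 81 members. No hg19 coordinate is given. Some genes are not reported here.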

Additional observations from a re-analysis of the deposited data

Results flagged for a closer look

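The THZ1 response of the members differed between lines by the test of the difference itself (limma, adjusted p under 0.05). On the deposited scale 78 members differed for PANC-1 minus MiaPaCa-2, 78 for PANC-1 minus BxPC-3 and 1 for MiaPaCa-2 minus BxPC-3, which was RPL36A (1.32 log2). With equal ERCC sums 1 member differed for PANC-1 minus MiaPaCa-2 (RPL7L1, 1.09), 2 for PANC-1 minus BxPC-3 (RPL36A, 1.34, and RPL7L1, 0.93) and 1 for MiaPaCa-2 minus BxPC-3 (RPL36A, 1.14). Equal member medians take out a response that the members share, and leave departures from it. With them 5 members differed for PANC-1 minus BxPC-3: RPL36A (1.54), RPL7L1 (1.18), RPL22L1 (0.63), RPS27L (0.44) and RPL35 (-0.20), where 49.3% of all genes did. For PANC-1 minus MiaPaCa-2 the 5 included RPL7L1 (1.02), RPL35 (-0.23), RPL13 (-0.22) and RPL37 (-0.21), where 41.0% of all genes did. For MiaPaCa-2 minus BxPC-3 it was 1, RPL36A (1.43), where 13.4% of all genes did.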

How the results depend on the processing

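Members rose in MiaPaCa-2 and BxPC-3 under each scaling but equal ERCC sums and equal member medians, with other sizes. Equal library sums gave medians of 0.45 in MiaPaCa-2 and 0.47 in BxPC-3 with 1 and 3 members lower, and differences of the response in 44 (PANC-1 minus MiaPaCa-2) and 49 members (PANC-1 minus BxPC-3). The shares of all genes beside these counts are not given here. Equal sums reversed RPL26 (-0.16), RPL22L1 (-0.13), RPL36A (-0.16) and RPL17 (-0.095) in MiaPaCa-2, and RPL26 (-0.19), RPL22L1 (-0.52) and RPL17 (-0.028) in BxPC-3. With 1 member lower in MiaPaCa-2 and 2 in BxPC-3 each, the medians were 0.86 and 0.81 (TMM factors), 0.91 and 0.91 (DESeq2 factors), 0.89 and 0.89 (edgeR), and 0.91 and 0.93 (DESeq2). Differences of the response for PANC-1 minus MiaPaCa-2 and minus BxPC-3 were 1 and 2 with ERCC sums and 5 and 5 with equal member medians, the last chosen after seeing the data. Equal member medians take out a shared response by construction, so few calls were bound to remain.

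In PANC-1 the 1 member called higher became 0 with equal sums, TMM or DESeq2 factors, no filter, no trend, the compared groups alone or edgeR, 5 with the pseudocount and filter in the deposited unit and 21 with DESeq2. The compared groups alone gave 1 member lower in MiaPaCa-2 and, with ERCC sums, 1 higher in BxPC-3 and 0 lower in PANC-1. MiaPaCa-2 minus BxPC-3 gave 2 members with a pseudocount of 5, 4 in the deposited unit and 27 with the compared groups alone. Members apart from the median in PANC-1 were 1 with no filter and 1 with the member mean as centre.

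Leaving out single libraries gave 0 to 64 members higher in PANC-1, 0 to 1 lower in MiaPaCa-2 and 1 to 10 for MiaPaCa-2 minus BxPC-3, and with ERCC sums medians of -0.25 to -0.066 in MiaPaCa-2 and -0.035 to 0.099 in BxPC-3 and 0 to 6 members lower in PANC-1. Members apart from the median were 0 to 7 in PANC-1, 8 to 32 in MiaPaCa-2 and 9 to 44 in BxPC-3. The highest of each, like 64, 1 and 10, came without PANC-1 DMSO replicate 1. In the fits without that library 28.0%, 76.1% and 79.2% of all genes were called apart from the median in these lines, and 5.63% were higher in PANC-1. That library also reversed RPS29 (0.34), RPLP2 (0.30), RPLP1 (0.31) and RPSA (0.28) in PANC-1; over all libraries left out RPLP2 ranged from -0.30 to 0.30 and RPLP1 from -0.26 to 0.31. The paralog ratios ranged from -0.94 to -0.87 (RPL7L1), -0.76 to -0.71 (RPL22L1), 0.25 to 0.47 (RPL26L1) and -0.27 to -0.12 (RPS27L). The cause of these changes was not tested.

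Whether replicate numbers pair the libraries is not settled by the values. Deviations of same-numbered libraries correlated by 0.45, 0.30 and -0.03 in PANC-1 (replicates 1, 2 and 3) and by at most 0.14 in the other lines. With the replicate number as a block PANC-1 had 0 members higher and 0 apart from the median, and the DMSO F-test called 67.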
